A study of Mus musculus with 4 samples.

Results

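Islr2, Ablim3 and Vstm2b are 3 of the 18042 genes in the authors' deposited comparison of dentate gyrus RNA from Eed cKO and WT mice. They were chosen by the size of the difference between the group means in that table, so their change is described here without a test. Each matched 1 row of the table by its symbol, and each was among the 15020 genes with enough counts to be tested. Islr2 and Ablim3 were lower in Eed cKO and Vstm2b was higher, each by a factor between 2.25 and 2.30. Per the labels, hippocampal dentate gyrus was taken from C57BL/6 mice on postnatal day 14, as 2 WT and 2 Eed cKO samples. The design text calls the replicates biological. The product of Eed is a core part of PRC2, the Polycomb complex that methylates lysine 27 of histone H3. The sources used here do not give the driver of the deletion, the deleted exons, the cells that lost Eed, the sex or the litter, and they name no further allele for WT.

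Islr2, also called Linx, encodes a membrane protein with leucine-rich repeats (LRR) and an immunoglobulin (Ig) domain. In mouse sensory and motor neurons it binds receptors of growth factors, among them the GDNF receptor Ret, and takes part in axon extension, guidance and branching, and in the forebrain it helps to guide axons between cortex and thalamus. Ablim3 encodes an actin-binding protein with LIM domains and a villin headpiece. In the mouse hippocampus abLIM3 lies at the mossy fibre terminals, the boutons through which dentate granule neurons contact area CA3. Vstm2b encodes a membrane protein with an immunoglobulin V-set domain, of which less is known.

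The distal start of Islr2 lies within the span of a gene on the opposite strand, 1600029O15Rik (58202897 to 58208808). The bases before that start are shown. They lie at chr9:58204320-58204569 on the minus strand (GRCm38.p6, sequence from RefSeq), and capitals mark the dinucleotide CG, which reads the same on both strands.
Islr2 upstream region: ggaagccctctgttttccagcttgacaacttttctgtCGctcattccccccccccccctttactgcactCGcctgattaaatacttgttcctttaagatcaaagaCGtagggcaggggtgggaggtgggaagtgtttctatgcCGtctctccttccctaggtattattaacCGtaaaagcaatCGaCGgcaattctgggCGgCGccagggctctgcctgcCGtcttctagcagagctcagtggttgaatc
This stretch of 250 bases holds 10 CG and no annotated exon of the GENCODE M21 annotation, although it lies within an intron of the antisense pseudogene 1600029O15Rik. The RefSeq promoter table (250 bases before to 50 after a start) held windows for Islr2 and Vstm2b. The window at the distal Islr2 start held 14 CG, and 65.9% of the 15192 windows of tested genes held at least as many. The other Islr2 windows held 6 and 11 CG. The Vstm2b window held 34 CG in 300 bases, a number reached by 14.1% of windows, against a median of 19. By this measure the Vstm2b window was CG-rich and those of Islr2 lay below the median. No window was held for Ablim3, and whether CG number goes with the direction of change was not tested.

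Depth was similar in the 4 libraries, between 17263273 and 17789587 counts. The deposited group means were resolved into whole counts for each library. The libraries are called A and B, and which replicate number in the titles each belongs to is unknown. Eed itself had 251 and 301 counts in WT and 133 and 142 in Eed cKO, which is 50.2% of the WT level (log2 fold change -0.98 ± 0.14, limma adjusted p = 0.0189). Its call was lost without either Eed cKO library (limma adjusted p = 0.128 without A and 0.124 without B). Some differences between libraries have no counterpart in the labels. Eed cKO A held 3809 counts of Xist, the transcript of the inactive X chromosome of females, against 8 to 11 in the others, and WT B held 110 counts of Ttr, a choroid plexus transcript, against 23697 to 35706. Counts and calls without single libraries are therefore given beside many of the results.

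Islr2 (ENSMUSG00000051243), a protein-coding gene on the minus strand of chromosome 9 at 58196297 to 58204319 (GRCm38), was the most abundant of the 3. It had 8090 counts in WT A (95% Poisson interval 7915 to 8268), 7391 in WT B (7223 to 7561), 3422 in Eed cKO A (3308 to 3539) and 3423 in Eed cKO B (3309 to 3540). Both WT libraries were high and both Eed cKO libraries low, with a gap of 3929 normalized counts between the groups against a range of 650 within WT and 21.9 within Eed cKO. The mean was 7690 ± 460 normalized counts in WT and 3425 ± 15.5 in Eed cKO (SD, n = 2), so that 44.5% of the WT level was left. The log2 fold change was -1.17 ± 0.07 (standard error), and single Eed cKO libraries set against single WT libraries gave between -1.23 and -1.10. The WT spread between libraries was wider than the Poisson intervals, while both Eed cKO counts lay within each other's interval.

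Ablim3 (ENSMUSG00000032735), a protein-coding gene on the minus strand of chromosome 18 at 61799392 to 61911824, followed the same order of groups at a lower level. WT A had 1930 counts and WT B 2129, whereas Eed cKO A had 896 and Eed cKO B 860. The WT libraries stood 1018 normalized counts above the Eed cKO libraries, with a range of 209 within WT and 30.7 within Eed cKO. The mean was 2017 ± 148 normalized counts in WT and 878 ± 21.7 in Eed cKO (SD, n = 2), leaving 43.6% of the WT level. The log2 fold change was -1.20 ± 0.08, and between -1.30 and -1.10 over single pairs of libraries. WT A was the higher WT library for Islr2 and WT B for Ablim3, so the WT spread of these genes did not run the same way.

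Vstm2b (ENSMUSG00000039257), a protein-coding gene on the plus strand of chromosome 7 at 40898328 to 40930594, went the opposite way. WT A had 613 counts and WT B 599, whereas Eed cKO A had 1407 and Eed cKO B 1355. In each group the 95% Poisson intervals of the libraries overlapped, for example 565 to 664 and 552 to 649 in WT. The groups stood 753 normalized counts apart, against ranges of 10.4 within WT and 43.6 within Eed cKO. The mean went from 602 ± 7.37 to 1382 ± 30.8 normalized counts (SD, n = 2), a 2.29-fold difference. The log2 fold change was 1.20 ± 0.07, and between 1.16 and 1.23 over single pairs of libraries.

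**Figure D1:**
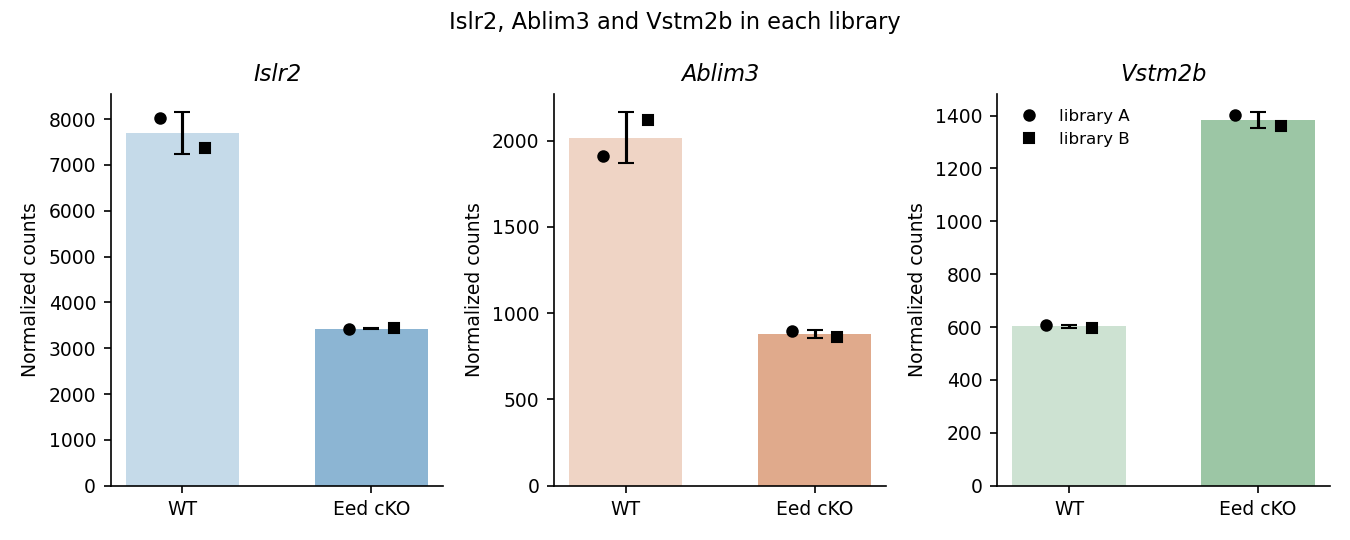
Normalized counts of Islr2, Ablim3 and Vstm2b in WT and Eed cKO, with a separate axis from 0 for each gene. Bars are group means, error bars SDs (n = 2), circles library A and squares library B. The groups do not overlap in any of the panels, with Islr2 at 7690 against 3425, Ablim3 at 2017 against 878 and Vstm2b at 602 against 1382.

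The rule picked the members for this difference, so nothing is read from the fact that their groups do not overlap. Nor is anything read from their ranks by size of change, among all genes or among genes of their abundance. Among all genes tested, 56.8% had groups that did not overlap. Past an adjusted p of 0.05 in limma were 6.44% of tested genes, 3.54% higher and 2.9% lower. The share was 6.65% in edgeR and 7.34% in DESeq2. In edgeR it was 11.6% without WT A, 7.87% without WT B, 1.32% when Eed cKO A was left out and 0.991% when Eed cKO B was. A log2 fold change of at least 1 was reached upward by 3.47% and downward by 1.67% of tested genes. In size of log2 fold change, Ablim3 ranked 158 and Islr2 171 among the 7589 tested genes with a negative value, and Vstm2b ranked 373 among the 7431 with a positive value. Most genes ahead of them were less abundant. Of the 482 tested genes at least as abundant as Islr2, 1 had a larger negative log2 fold change. Of the 2735 at least as abundant as Ablim3, 7 did, and of the 4033 at least as abundant as Vstm2b, 11 had a larger positive one. In the authors' deposited table the log2 fold changes were -1.17 ± 0.10 for Islr2, -1.20 ± 0.13 for Ablim3 and 1.20 ± 0.13 for Vstm2b (standard errors).

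**Figure D2:**
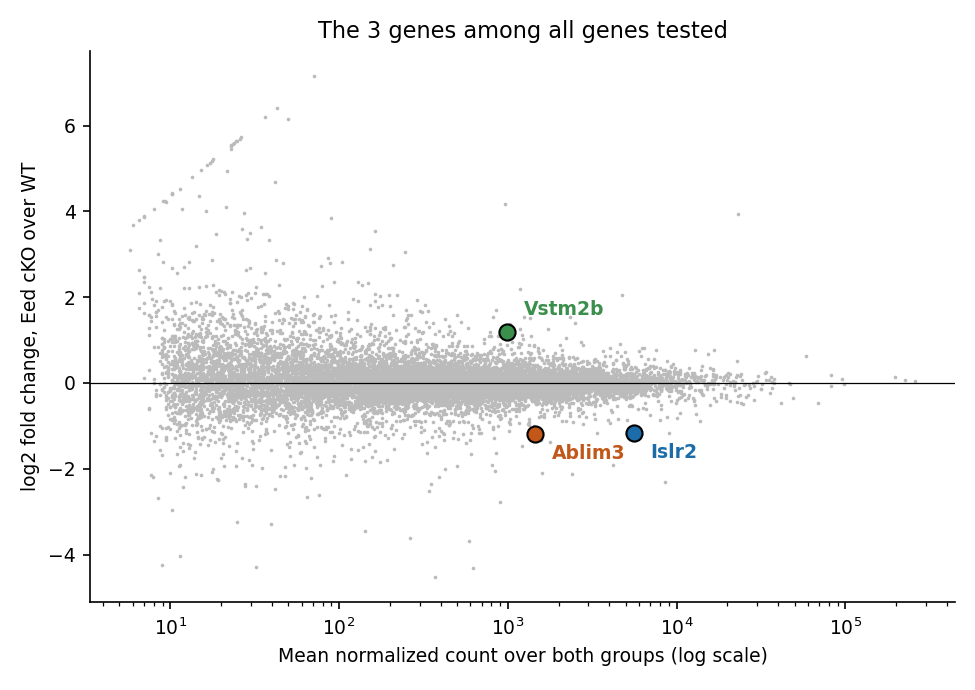
Each gene's log2 fold change (Eed cKO over WT) plotted against the mean normalized count over both groups (log axis) for the 15020 genes tested, each a grey point. Islr2 (-1.17) and Ablim3 (-1.20) lie below and Vstm2b (1.20) above the band formed by most genes of their abundance. They were picked for their change, so this position is described only. Larger changes are mostly those of genes with few counts.

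The order of levels between the 3 genes differed between the groups, by normalized counts and also when set per length. By mean normalized counts, Ablim3 was above Vstm2b in WT (2017 against 602) and below it in Eed cKO (878 against 1382). With the exonic length of GENCODE M21 (5921 bases for Islr2, 4535 for Ablim3 and 2747 for Vstm2b), WT means were 1299, 445 and 219 normalized counts per kilobase, in that order. In Eed cKO they were 578 for Islr2, 194 for Ablim3 and 503 for Vstm2b, so Vstm2b was above Ablim3 per length in Eed cKO and below it in WT. Among the genes of the table, Islr2 ranked 293 and 301 by normalized count in the WT libraries and 965 and 948 in the Eed cKO libraries. Vstm2b moved from rank 5893 and 6013 to rank 2826 and 2918. Levels per length depend on the exonic length used, while the fold changes do not. The annotation that the authors counted with is not given in the sources used here, so how far the counts depend on it is unknown.

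The tissue mixes cell types, and fewer cells of a type cannot be told apart from less RNA per cell. Markers of granule neurons, the main neurons of the dentate gyrus, were read in every library, which is what the tissue label names. Of 13 immature granule neuron markers, 6 fell and 1 rose, and of 13 mature granule neuron markers, 5 fell and none rose. Called lower were 46.2% of the immature and 38.5% of the mature list, against 2.9% of all tested genes. Called higher were 7.69% of the immature list, against 3.54% of all tested genes. None of the mature list rose in edgeR or DESeq2 or at an unadjusted p under 0.05 in limma either. Of the same list, 5 fell in edgeR, 8 in DESeq2, and 10 were lower at an unadjusted p under 0.05 in limma. The share of all tested genes at that unadjusted level is not given here, so no excess is read from such counts. Leaving out Eed cKO A left 2 immature and 1 mature marker that fell in limma, leaving out Eed cKO B left 2 and 2, and in edgeR either left 5 and 3. Without WT A 8 of the mature list fell in limma. The summed level of the mature list was 13246 and 16677 normalized counts in the WT libraries and 8480 and 7845 in the Eed cKO libraries. That of the immature list was 38387 and 37712 against 34186 and 37539. Among the fallen were Igfbpl1, Sox11 and Neurod1 of the immature list (7.74%, 23.2% and 36.2% of WT) and Prox1, a homeobox factor of granule neuron identity, Lct and Dsp of the mature list (22.8%, 21.7% and 43.8%). Calls of both lists thus went mostly in the direction of Islr2 and Ablim3, and their part in the result was not tested.

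Markers of other neurons went in part in the direction of Vstm2b. Of 15 GABAergic interneuron markers 3 rose (Sst, Dlx2 and Erbb4) and none fell, with summed levels of 21274 and 21860 in WT against 28193 and 27746 in Eed cKO. At an unadjusted p under 0.05 in limma, 14 of the 15 were higher and none lower, and edgeR and DESeq2 called none lower. No share of all tested genes at that unadjusted level stands beside this count. The 3 became 6 in limma without WT A and 0 without either Eed cKO library or without a filter on low counts. Of 13 CA pyramidal neuron markers 5 rose, among them Nov, Ociad2 and Man1a, and Wfs1 fell, with summed levels of 27246 and 26738 against 33348 and 35993. The 5 that rose are 38.5% of the list and Wfs1 7.69%, against 3.54% of all tested genes higher and 2.9% lower. These 5 became 0 in limma without either Eed cKO library (1 and 0 in edgeR) and 1 without a filter, and without WT B 4 fell in place of 1. Of 9 tested thalamic neuron markers Lhx9 rose and Lhx2 and Plekhg1 fell, with summed levels of 6232 and 6202 against 6307 and 5920. In this short list 11.1% were called higher and 22.2% lower, against 3.54% and 2.9% of all tested genes. Without WT B 4 thalamic markers rose and 3 fell in limma, and without either Eed cKO library none did. The groups' summed levels did not overlap for the interneuron and CA lists and did overlap for the thalamic list. Groups did not overlap for 56.8% of single genes tested either, so this does not set lists apart. Of 13 markers of meninges and fibroblasts 7 fell (led by Col3a1 and Col1a2) and Dcn and Twist1 rose, with summed levels of 9175 and 11479 against 7205 and 7066. Of these markers 53.8% were called lower and 15.4% higher, against 2.9% and 3.54% of all tested genes. In limma none of these rose without either Eed cKO library, and 0 fell without A and 1 without B, whereas edgeR called 2 higher without either, and 5 and 4 lower. None of 10 choroid plexus markers passed in limma, edgeR or DESeq2, and the number at an unadjusted p under 0.05 was 0. Without WT A 9 of them were called higher, and without WT B limma called 2 lower. Their summed level was 2240 in WT B against 28226 to 42770 in the other libraries, and Slc4a5 was at 0 in WT B. Every marker had at least 1 count in every library except Slc4a5 in WT B and 1 thalamic marker, Gbx2. The part of these lists in the 3 genes' values was not tested.

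The relatives of Islr2 are LRR membrane proteins with an Ig domain. Of 26 listed, 22 were in the table and 21 could be tested. Of these 3 fell in limma, none rose and 18 did not pass, and at an unadjusted p under 0.05 there were 4 lower genes and 1 higher gene. Neither edgeR nor DESeq2 called any higher, but without WT A limma called 2 higher and edgeR 3, and without WT B limma called 1. Their median log2 fold change was 0.05, against 0.00 over all genes tested. Of the list 14.3% were called lower, against 2.9% of all tested genes. Without a filter on low counts, limma called none of the list lower. Islr, the closest relative, overlaps Islr2 on the same strand and shares 181 exonic bases with it. Islr had 609 and 789 counts in WT and 579 and 639 in Eed cKO (limma, log2 fold change -0.18 ± 0.14, adjusted p = 0.481). Its groups overlapped. Its sign turned without WT B (log2 fold change 0.013). Islr and Islr2 thus stood at 87.7% and 44.5% of WT.

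Those that fell were Lingo2, Lingo3 and Lrrn1. Lingo2, a relative of the Nogo receptor partner Lingo1, had 376 and 356 counts in WT and 249 and 235 in Eed cKO, or 66.6% of WT (limma adjusted p = 0.0316). Lingo3 had 800 and 996 counts in WT and 592 and 589 in Eed cKO, or 66.2% of WT (limma adjusted p = 0.045). Lrrn1 had 2265 and 2366 counts in WT and 1736 and 1792 in Eed cKO, or 76.7% of WT (limma adjusted p = 0.0316). The 3 calls were smaller in size than the difference of Islr2, which was picked for its difference. All 3 were lost in limma without a filter on low counts (adjusted p = 0.0528 for Lingo2, 0.0871 for Lingo3 and 0.0576 for Lrrn1). Each call was lost in limma and in edgeR without either Eed cKO library. Lingo2 was also lost in limma without WT A or WT B, Lingo3 in limma without WT B, and Lrrn1 in edgeR without WT B.

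LRR membrane proteins without an Ig domain gave 2 genes that rose and none that fell among 19 tested, with a median log2 fold change of 0.12. Tpbg, a membrane antigen first described in trophoblast, had 134 and 133 counts in WT and 273 and 268 in Eed cKO, a 2.04-fold rise (limma adjusted p = 0.0129). The call of Tpbg was lost without either Eed cKO library in limma (adjusted p = 0.109 and 0.115) and in edgeR (0.0658 and 0.0782). Lrrtm2, a postsynaptic adhesion protein, rose 1.32-fold (limma adjusted p = 0.0465) and its call was lost in limma without any 1 of the 4 libraries. At an unadjusted p under 0.05, 1 of the 19 was lower, and neither edgeR nor DESeq2 called any lower.

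Ret, which Linx is known to bind, gave no call. It had 165 and 168 counts in WT and 140 and 167 in Eed cKO (limma adjusted p = 0.686). Ntrk2, the receptor of BDNF, stood at 97.2% of WT, with 8191 and 8862 counts against 8117 and 8341 (limma adjusted p = 0.797). Of 17 ligands and receptors of the neurotrophin and GDNF families, 12 could be tested, of which 1 rose and 1 fell. That is 8.33% in each direction, against 3.54% of all tested genes higher and 2.9% lower. Ngfr, the p75 neurotrophin receptor, had 47 and 44 counts in WT and 274 and 184 in Eed cKO, a 5.07-fold rise (limma adjusted p = 0.00911). The Eed cKO libraries of Ngfr were unequal, but both lay above WT. Ntf3, the ligand neurotrophin 3, had 179 and 263 counts in WT and 78 and 82 in Eed cKO, or 36.4% of WT (limma adjusted p = 0.0206). Ngfr lost its call in limma without Eed cKO A (adjusted p = 0.0809) and kept it without Eed cKO B and, in edgeR, without either. Ntf3 lost its call in both tools without either Eed cKO library.

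Among the relatives of Ablim3, none of 7 abLIM and villin headpiece genes passed in limma, edgeR or DESeq2, with a median log2 fold change of 0.04. At an unadjusted p under 0.05 in limma, 2 were higher and 2 lower. Without WT B, limma called 1 of the list higher and edgeR none. Ablim1 had 1066 and 1704 counts in WT and 1378 and 1768 in Eed cKO (limma, log2 fold change 0.22 ± 0.23, adjusted p = 0.601), with overlapping groups and a sign that turned without WT A (log2 fold change -0.12). Vill, a villin-like gene with 7 and 11 counts in WT and 25 and 26 in Eed cKO, had the smallest p of the list (limma adjusted p = 0.0773).

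The wider set of actin-associated LIM proteins gave 1 gene that rose and 2 that fell among 37 tested, with a median of -0.05. These are 2.7% higher and 5.41% lower, against 3.54% and 2.9% of all tested genes. Csrp1, a cysteine-rich LIM protein of actin filaments, fell from 2542 ± 122 to 995 ± 272 normalized counts, or 39.1% of WT (SD, n = 2; limma adjusted p = 0.0144). Lima1, which bundles actin filaments, fell to 69.0% of WT (adjusted p = 0.0365). Tgfb1i1, a paxillin-like protein also called Hic-5, rose 1.62-fold (adjusted p = 0.013). In limma, Lima1 lost its call without any 1 of the 4 libraries (adjusted p between 0.0561 and 0.223), Tgfb1i1 without either Eed cKO library (0.109 and 0.121) and Csrp1 without Eed cKO A (0.0713).

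In muscle cells abLIM proteins bind STARS, the product of Abra, which acts on transcription through the factor SRF. Of 15 genes listed for this pathway 13 could be tested, of which 4 fell and none rose in limma, edgeR and DESeq2, with a median log2 fold change of -0.33. Of the 13, 30.8% were called lower in limma, against 2.9% of all tested genes. At an unadjusted p under 0.05 in limma, 8 were lower and none higher. Abra itself had 2 and 2 counts in WT and 0 and 1 in Eed cKO, too few to be tested. The genes that fell encode contractile and cytoskeletal proteins, mostly of smooth muscle. Acta2, smooth muscle actin, had 1568 and 1603 counts in WT and 192 and 270 in Eed cKO, or 14.7% of WT (limma adjusted p = 0.00487). Cnn1 and Tagln, the smooth muscle proteins calponin and transgelin, fell to 17.4% and 18.9% of WT (adjusted p = 0.0131 and 0.0257). Flna, filamin A, the fourth, is outside the rule for names and had the largest p of the 4. Without WT B, 2 genes of the list fell in limma, and without either Eed cKO library 1 did, as in edgeR. Acta2 kept its call in all of these. The share of smooth muscle cells in each sample was not measured.

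Genes of the mossy fibre terminal and its adhesive contacts moved in both directions. Of 19 tested, 4 fell, 2 rose and 13 did not pass, with a median log2 fold change of -0.13. Cdh9, a cadherin needed for mossy fibre contacts in mouse, had 843 and 793 counts in WT and 444 and 387 in Eed cKO, or 51.1% of WT (limma adjusted p = 0.00951). Ssx2ip, which binds the nectin partner afadin, fell to 69.0% (adjusted p = 0.014), and Cdh8, a cadherin of the same class as Cdh9, fell to 69.1% (adjusted p = 0.0152). The genes that rose were Gpc4 and Kirrel3, which were named after their values were seen. Gpc4 stood at 146% of WT (limma adjusted p = 0.0284) and Kirrel3 at 132% (limma adjusted p = 0.0496). In limma the call of Kirrel3 was lost with a pseudocount of 0.5 (adjusted p = 0.0502). It was also lost without a filter on low counts (adjusted p = 0.0882). Without WT B 6 of the list fell in limma in place of 4, and without either Eed cKO library none fell or rose in limma, while edgeR called 1 lower.

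**Figure D3:**
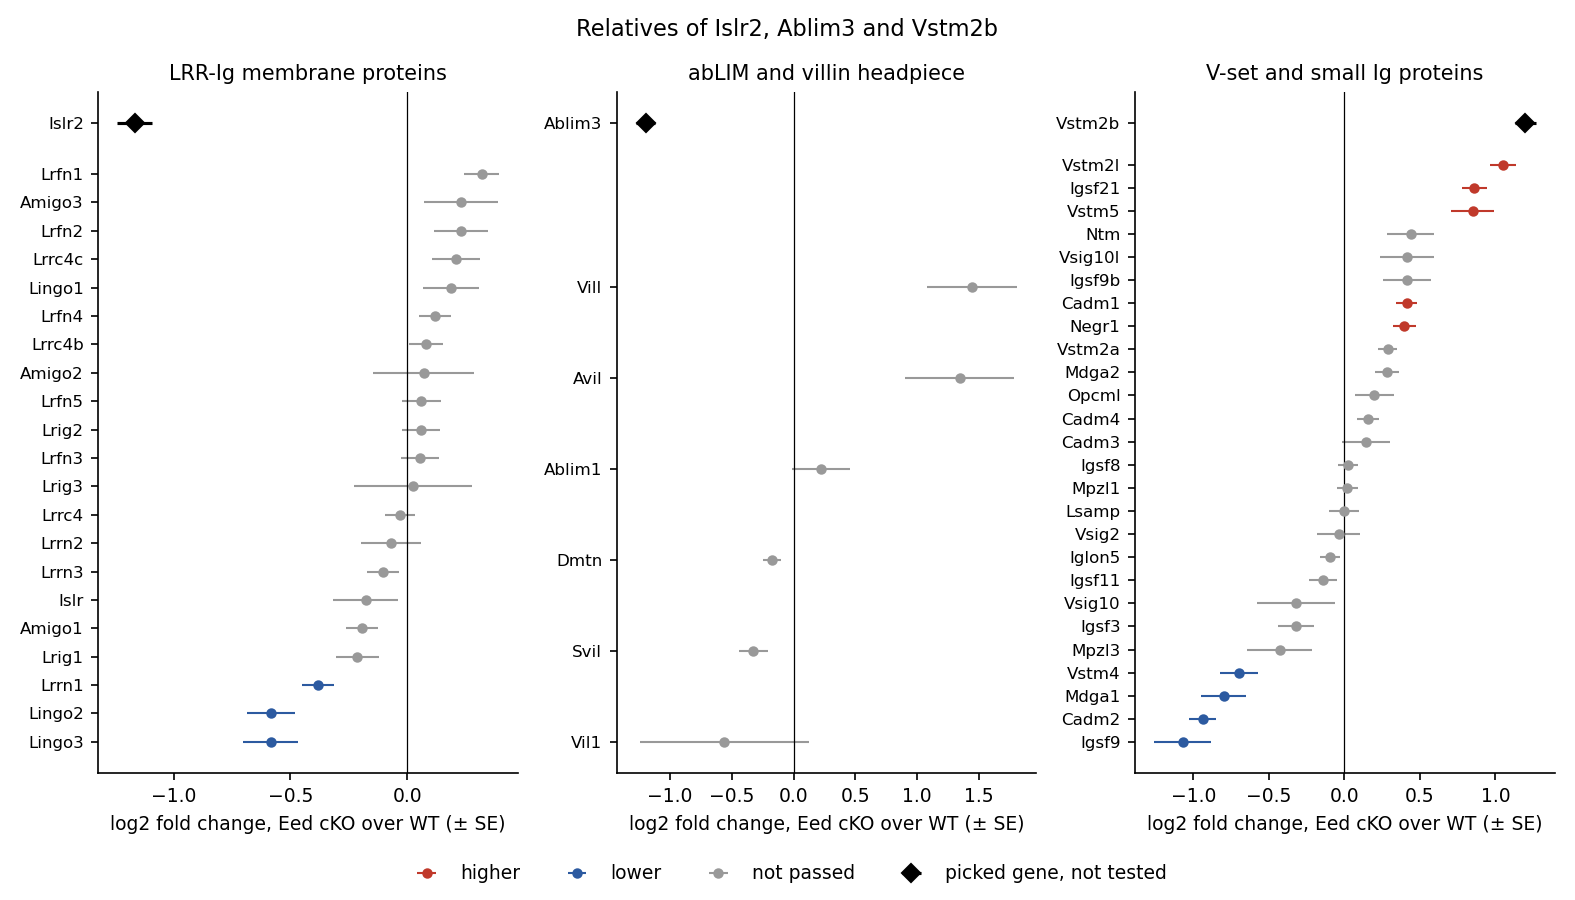
Fold changes on the log2 scale (Eed cKO over WT, bars for standard errors) of tested relatives of Islr2, Ablim3 and Vstm2b, with red for genes called higher, blue for lower and grey for not passed in limma. The black diamonds are Islr2, Ablim3 and Vstm2b, which were picked for their change and not tested, so their position is described only. Islr2 (-1.17) lies below all 21 of its tested relatives and Ablim3 (-1.20) below the relatives drawn beside it, while Vstm2b (1.20) is followed by Vstm2l at 1.05, Igsf21 at 0.86 and Vstm5 at 0.85.

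Other genes named for a V-set and transmembrane domain rose or fell with different members. Vstm2l, a paralogue of Vstm2b, had 1549 and 1342 counts in WT and 2966 and 2960 in Eed cKO, without overlap. Its mean of 1436 ± 140 normalized counts in WT became 2965 ± 8.52, a 2.06-fold rise (SD, n = 2, with a log2 fold change of 1.05 ± 0.08 and a limma adjusted p = 0.00595). The call for Vstm2l was kept in edgeR without either Eed cKO library and lost in limma (adjusted p = 0.075 without A and 0.0642 without B). Vstm5, a membrane protein that shapes protrusions and spines of mouse neurons, had 125 and 121 counts in WT and 206 and 237 in Eed cKO, a 1.81-fold rise (limma adjusted p = 0.0265). The call for Vstm5 was lost without either Eed cKO library in limma and edgeR. Vstm2a, the paralogue that encodes a secreted protein, had 1978 and 1962 counts in WT and 2403 and 2368 in Eed cKO, at 122% of WT. It did not pass (limma adjusted p = 0.0535), although its groups did not overlap. Vstm4 went down, with 208 and 210 counts in WT and 129 and 126 in Eed cKO, or 61.4% of WT (limma adjusted p = 0.0344). DESeq2 did not call Vstm4 (adjusted p = 0.0775), nor did limma without any 1 of the 4 libraries (adjusted p between 0.0584 and 0.195).

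Of 26 tested genes in the list of V-set and other small Ig membrane proteins, 5 rose, 4 fell and 17 did not pass. These are 19.2% higher and 15.4% lower, against 3.54% and 2.9% of all genes tested. Without a filter on low counts, limma called 2 of the list higher and 1 lower. The median log2 fold change was 0.08. The others that rose were Igsf21, Cadm1 and Negr1. Igsf21, a synaptic adhesion protein of inhibitory synapses, had 1086 and 971 counts in WT and 1925 and 1784 in Eed cKO, a 1.82-fold rise (limma adjusted p = 0.0084). Cadm1, a synaptic adhesion molecule, rose 1.33-fold (adjusted p = 0.0260) and Negr1, of the IgLON family, 1.32-fold (adjusted p = 0.0421). The others that fell were Cadm2, Igsf9 and Mdga1. Cadm2, a paralogue of Cadm1, had 5181 and 5488 counts in WT and 2597 and 2942 in Eed cKO, or 52.3% of WT (limma adjusted p = 0.00799). Igsf9, a dendrite and synapse protein, fell to 47.6% (adjusted p = 0.032), and Mdga1, which binds neuroligins, to 57.2% (adjusted p = 0.0366). Without Eed cKO A or without Eed cKO B, limma called no gene of this list, with adjusted p of 0.0883 and 0.0724 for Igsf21 and 0.0833 and 0.0605 for Cadm2. In edgeR, Vstm2l and Igsf21 stayed higher and Cadm2 lower, and no other gene of the list was called. The list was chosen with the rise of Vstm2b known, so its counts are no independent sign of a direction.

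At the Islr2 and Vstm2b loci, the gene that overlaps on the opposite strand went the same way as the member. 1600029O15Rik, a transcribed processed pseudogene at chromosome 9, 58202897 to 58208808 on the plus strand, had 81 and 70 counts in WT and 29 and 27 in Eed cKO. Its fall to 37.4% of WT (log2 fold change -1.39 ± 0.22, limma adjusted p = 0.0235) stood beside 44.5% for Islr2. A230077H06Rik, annotated as antisense to Vstm2b at chromosome 7, 40818476 to 40900937 on the minus strand, had 114 and 147 counts in WT and 304 and 307 in Eed cKO. It rose 2.36-fold (log2 fold change 1.24 ± 0.16, adjusted p = 0.0143), beside 2.29-fold for Vstm2b. Both calls were lost in limma and edgeR without either Eed cKO library, and that of 1600029O15Rik also in limma without WT A (adjusted p = 0.0513). The exons of A230077H06Rik share 222 bases with those of Vstm2b, or 8.08% of the exonic bases of Vstm2b, and those of 1600029O15Rik share 55 bases with Islr2, or 0.929%. Whether reads were counted by strand is not given, so those of these shared bases cannot be assigned to a strand. Islr shares 181 exonic bases with Islr2 on the same strand, 3.06% of the exonic bases of Islr2, through a transcript annotated from the distal Islr2 start.

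Of the 5 nearest tested genes on each side, Islr2 had 2 that fell and 1 that rose, Ablim3 none and Vstm2b 1 that rose and 1 that fell, against 6.44% of all tested genes called. Around Ablim3, edgeR and DESeq2 called none either, and 1 gene was lower at an unadjusted p under 0.05 in limma. At that level 3 were lower and 3 higher around Islr2, and 5 lower and 1 higher around Vstm2b. Of the 9 neighbours of Vstm2b that do not overlap it, 8 had a negative log2 fold change, between -0.87 and -0.18, opposite in sign to Vstm2b, as had 7589 of all 15020 genes tested. Beside the overlapping genes the called neighbours were Sema7a, AI987944 and 6030419C18Rik. Sema7a, a membrane-anchored semaphorin whose gene lies 233432 bases from Islr2, had 2271 and 2137 counts in WT and 1396 and 1515 in Eed cKO, or 66.5% of WT (limma adjusted p = 0.0144). Its call was lost without either Eed cKO library in limma (0.125 and 0.109) and in edgeR (0.101 and 0.0764). On the other side of Islr2, 6030419C18Rik was at 125% (adjusted p = 0.0489), a call lost in limma without WT B, without either Eed cKO library and without a filter on low counts. The nearest genes of Ablim3 in the table were Afap1l1, at 74.4% of WT (limma adjusted p = 0.154), and Sh3tc2, with 24 to 35 counts a library (adjusted p = 0.902). Vstm2b has no tested gene other than its antisense partner within 442329 bases. That nearest gene, AI987944, fell to 57.5% of WT (adjusted p = 0.0432), opposite to Vstm2b, and was not called by DESeq2 (adjusted p = 0.116), nor by limma without any 1 of the 4 libraries.

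**Figure D4:**
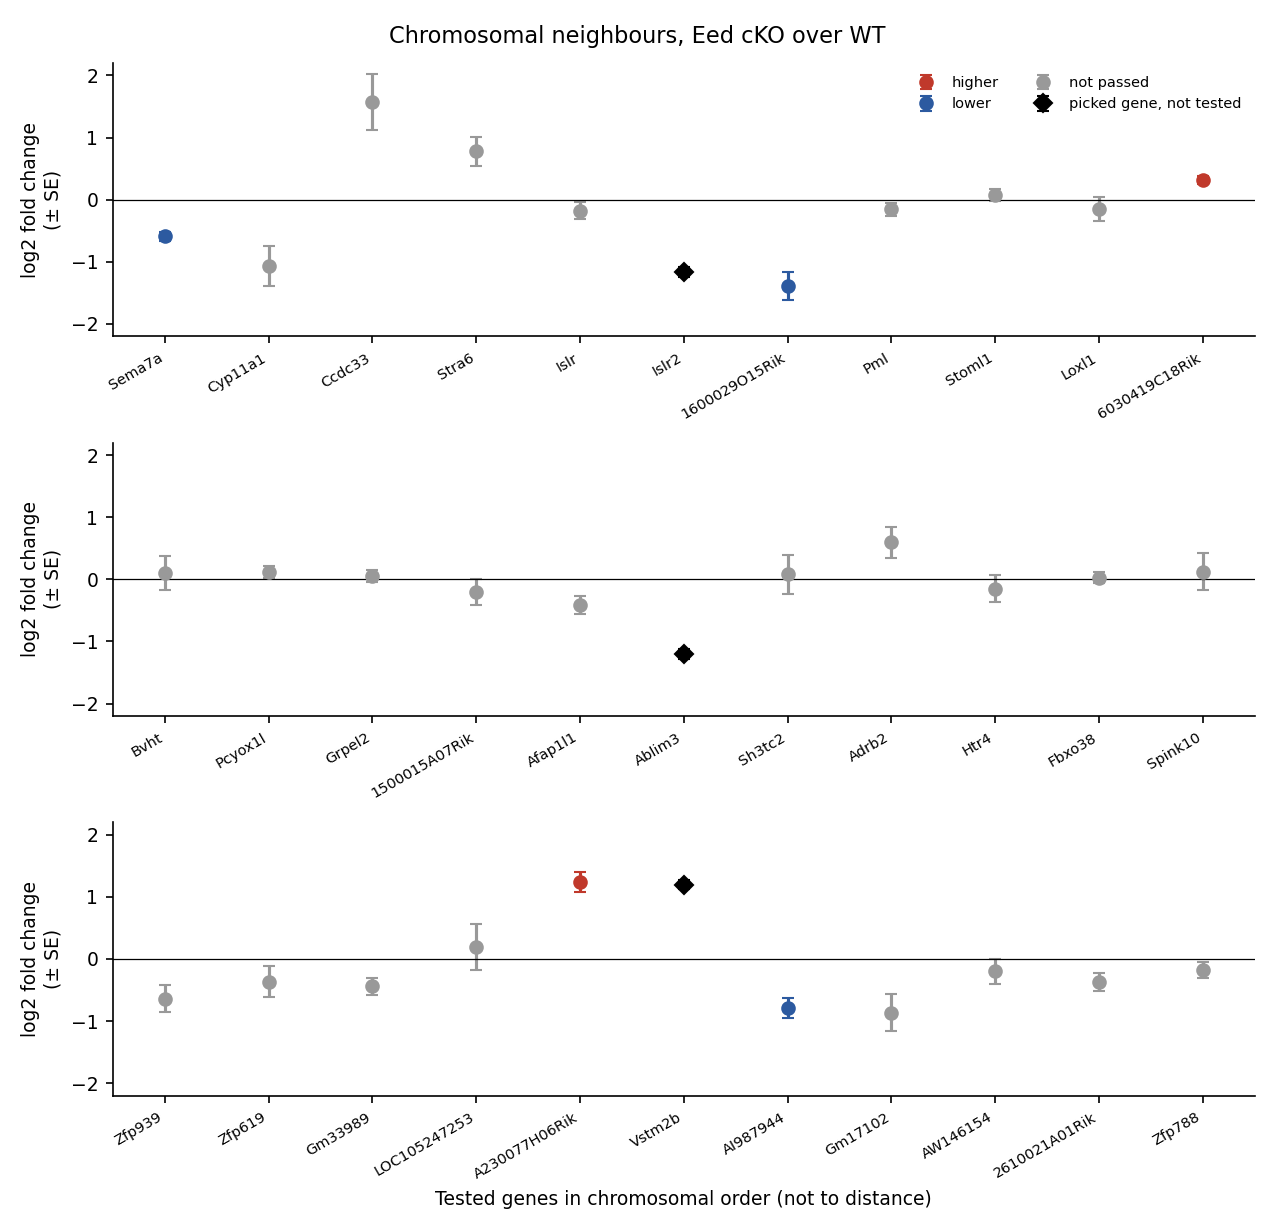
Fold changes on the log2 scale (Eed cKO over WT, bars for standard errors) of the 5 nearest tested genes on each side of Islr2 (top), Ablim3 (middle) and Vstm2b (bottom), in chromosomal order and not to distance. The antisense genes 1600029O15Rik (-1.39) and A230077H06Rik (1.24) lie beside Islr2 (-1.17) and Vstm2b (1.20), while Afap1l1 (-0.41) and Sh3tc2 (0.08) flank Ablim3 (-1.20).

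To place the pattern over the 4 libraries, each member's centred log2 values were compared with those of the 12314 tested genes that averaged at least 50 normalized counts and had a symbol not starting with Gm or ending in Rik. The nearest to Islr2 were Rasl10a, Sypl2 and Myl9, with root mean square differences of 0.04, 0.06 and 0.07 on the log2 scale. Rasl10a, a small GTPase of the Ras family, had 690 and 641 counts in WT and 307 and 287 in Eed cKO. The nearest to Ablim3 were Dsp (0.02), Zbtb20 (0.05) and Slc13a4 (0.06). Dsp, the desmosome protein desmoplakin and a granule neuron marker in the list above, had 542 and 624 counts in WT and 259 and 248 in Eed cKO, with WT B the higher WT library as in Ablim3. Zbtb20, a transcription factor of hippocampal neurons, had 12358 and 12741 counts in WT and 5870 and 5301 in Eed cKO. The nearest to Vstm2b were Kcnt1 (0.04), Phlda3 (0.05) and Tpd52l1 (0.06). Kcnt1, a sodium-activated potassium channel, had 645 and 651 counts in WT and 1494 and 1529 in Eed cKO. Islr2 and Ablim3 were 0.10 apart, and Vstm2b was 1.18 from Islr2 and 1.20 from Ablim3. With 4 libraries in 2 groups, likeness of this kind mostly records a similar fold change.

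The log2 fold changes of the 3 members were also taken from the alternatives run, whose calls were not used. As the groups of each gene do not overlap, leaving out a library could not turn the sign. Over 14 alternatives, among them each library left out in limma and edgeR, the log2 fold change lay between -1.23 and -1.10 for Islr2, between -1.27 and -1.11 for Ablim3 and between 1.17 and 1.23 for Vstm2b. Without Eed cKO A, the library with Xist reads, limma gave -1.16, -1.22 and 1.17, and without WT B, the library with few Ttr reads, it gave -1.23, -1.12 and 1.18 (Islr2, Ablim3 and Vstm2b in each case).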

How the data were processed

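RNA-seq was made from dentate gyrus of 2 WT and 2 Eed cKO mice, grouped by title. Reads were aligned with HISAT2 2.1.0 to GRCm38 and compared with DESeq2 1.2.0, per the submitters' processing notes. For the counter, the strand and the annotation, nothing is given in the sources used here. The authors deposited 1 table with a mean signal (count divided by size factor) for each group, a log2 fold change with its standard error, a Wald score and p-values. No other column of per-sample values was present. The deposited means lie on a lattice of 2 steps a group, 0.495 and 0.498 in WT and 0.499 and 0.502 in Eed cKO. From these steps whole counts of both libraries were recovered for 100.0% of genes (tolerance 1e-08, largest residual 6.26e-10, smallest second-best residual 9.85e-07). edgeR 4.0.16 called 999 genes on the recovered counts.

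Counts divided by the size factors (0.996 to 1.01) were tested with limma 3.58.1 (R 4.3.3, with an intensity trend and genotype as sole term) after adding 1 and taking log2. A gene was tested if 2 or more libraries reached 10 normalized counts, and p-values were adjusted by Benjamini-Hochberg over all 15020 such genes. Adjusted p-values are from this fit unless another tool is named, and the threshold was 0.05. Counts at an unadjusted p under 0.05 have no share of all tested genes beside them, so no excess is read from them. A fold change on this scale understates that of low genes, and folds and percentages of WT come from mean normalized counts. Poisson intervals cover counting error only. Alternatives were edgeR with TMM, DESeq2 1.42.0, pseudocounts of 0.5 and 5, no filter or a filter of 50, and each library left out, in limma and, added after seeing the data, in edgeR. At the main filter and pseudocount, with all 4 libraries, limma, edgeR and DESeq2 were first run on simulated counts. The outcome is not given here, and the other alternatives were not run on simulated counts.

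The members, the 8 gene lists and the 7 marker lists were chosen with earlier results of these data known. Genes were named by rule: the members and Eed, every called gene of the LRR-Ig, abLIM and V-set lists, the direct paralogues (of which 1 is not reported here), up to 3 called genes of each other list by p (or the gene with the smallest p), the nearest and the called neighbours, and 3 genes nearest in pattern. Other genes (Ret, Ntrk2, Flna, Gpc4, Kirrel3, Abra, Slc4a5, Gbx2, Xist, Twist1 and Dcn among them) were named after their values were seen, or to complete a list. Coordinates and exonic lengths are from GENCODE M21 (GRCm38).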

Additional observations from a re-analysis of the deposited data

How the results depend on the processing

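With 2 libraries in each group, the tests rest on few residual degrees of freedom, and the libraries' places among the replicate numbers are unknown. No paired analysis was possible because the deposited columns carry no replicate numbers. The log2 fold changes of the 3 members kept their sign under all 14 alternatives and stayed within the range over single pairs of libraries. With groups that do not overlap, leaving out a library in limma could neither turn the sign nor leave that range. This is therefore no test of these genes. The counts of calls depended on the setting. Without a filter on low counts, where more genes with few counts are tested, higher calls went from 532 to 271 and lower calls from 435 to 202, those of the 8 gene lists from 11 to 6 and from 18 to 8, and higher neighbours from 2 to 1. With each library left out in turn, limma gave 0 to 858 higher and 7 to 640 lower genes, 0 to 15 and 1 to 19 in the lists, and 0 to 4 and 0 to 3 among the neighbours. In edgeR, added after seeing the data, the same gave 83 to 910 and 63 to 813 genes, 3 to 17 and 4 to 22 in the lists, and 0 to 4 and 0 to 5 among the neighbours. The lowest counts came from leaving out an Eed cKO library, which leaves 1 sample in that group that is assumed to vary like the WT libraries. Without Eed cKO A limma called 0 genes higher and 7 lower, and without Eed cKO B 9 and 22, while edgeR called 104 and 91, and 83 and 63. The log2 fold change of Eed lay between -1.12 and -0.85 in limma and between -1.12 and -0.84 in edgeR, and its call was lost without Eed cKO A (-0.93, adjusted p = 0.128 in limma and 0.0942 in edgeR) and without Eed cKO B (-1.04, adjusted p = 0.124 and 0.0962). The sign turned for Ablim1 without WT A (-0.12 in limma, -0.11 in edgeR) and for Islr without WT B (0.013 and 0.025), neither of which passed the test. With each library left out, limma gave Ablim1 between -0.12 and 0.56 and Islr between -0.37 and 0.013. The cause of these changes was not tested. Genes with few counts, such as Tagln and Vill, are limited by depth.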
